A study of Mus musculus with 6 samples.

Results

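The replication-dependent histone genes were examined for chromatin accessibility in sorted nuclei of the mouse ventral tegmental area, a part of the midbrain that takes part in reward, with lowered Ogt as the variable. Ogt is the O-GlcNAc transferase gene, whose enzyme places a single sugar on serine and threonine residues of intracellular proteins. The genes were chosen by name, as protein-coding genes of the RefSeq table that carry a Hist1h, Hist2h, Hist3h or Hist4h symbol or its newer form. This gave 67 genes, 63 by their current symbol and 4 by an older symbol only (H4f16, H2bu2, H2aw and H4bc24). They comprise 6 H1, 18 H2A, 18 H2B, 12 H3 and 13 H4 genes. Regions of the deposited tables that overlap the bounds of these genes extended by 10000 bp on either side were taken as histone regions, 73 of 193148 in all, and all 73 passed the filter on low counts.

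Replication-dependent histone genes make the bulk of the histones that package new DNA in S phase. They are short, lack introns, sit in clusters, and give mRNAs that end in a stem-loop in place of a poly(A) tail, and many H2A and H2B genes are transcribed in opposite directions from a shared promoter. Neurons have left the cell cycle and draw mainly on replacement variants that are made outside S phase.

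Each of the 6 libraries came from mice injected in the ventral tegmental area with a pair of viral vectors, AAV-TH-Cre and the reporter AAV-DIO-H2B-EGFP, and nuclei positive for EGFP were sorted. The first vector is named for tyrosine hydroxylase, the marker enzyme of dopaminergic neurons, and the second for a Cre-dependent EGFP fused to histone H2B, so nuclei of both groups carry an H2B reporter whose part in the reads at H2B genes was not tested. The control group has the genotype Ogtflox-/Y and the knockdown group Ogtflox+/Y, with 3 libraries each. The labels name the tissue, a dopaminergic neuronal cell and virus injection, and give no age or number of animals. ATAC-seq reads out DNA that is open to a transposase, yet the labels' protocol describes DNA library construction with a kit, without naming a transposase. Knockdown replicate 1 has Ogtflox+/Y as its genotype and Ogtflox-/Y in its title. The genotype was followed, and results are also given without this library and with groups by title. Whether libraries came from separate animals is not stated, so the spread behind each p-value is that of these libraries and could be technical. In such bulk samples, fewer nuclei with an open site and a less open site in each nucleus cannot be told apart.

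Library totals ran from 34384319 to 66853563 reads, with 12698758 to 24440507 of them in regions. The sum of accessibility at 78 regions of 9 dopaminergic marker genes was 805 to 1237 CPM (counts per 1e6 reads in regions) in control and 820 to 928 in knockdown. Of these 78 regions 7 were called higher and 4 lower (8.97% and 5.13%). At the Th start site control libraries had 177.9, 378.7 and 245.2 CPM and knockdown libraries 237.9, 182.5 and 172.3 CPM, with overlap. The means were 267.3 CPM in control and 198 CPM in knockdown (edgeR adjusted p = 0.076). Another Th region, not over the listed start (chr7:142901116-142901516), was called lower, also with overlap. Its means were 164.1 and 96.6 CPM (log2 fold change -0.77, edgeR adjusted p = 0.0089). The largest called gains at these marker genes were at Ddc (log2 fold change 2.06) and En1 (1.27). The largest called loss was at Lmx1b (-0.80), and none of these regions lay over a listed start of the gene. Markers of other cells were also accessible. The summed CPM was 318 to 350 in control and 363 to 473 in knockdown at astrocyte genes, 165 to 194 and 192 to 257 at oligodendrocyte genes, and 135 to 166 and 186 to 221 at GABAergic genes, the first and the third without overlap between the groups. In knockdown replicates 1 to 3 these sums were 473, 363 and 469 CPM at astrocyte genes and 257, 192 and 206 CPM at oligodendrocyte genes. At GABAergic genes they were 221, 187 and 186 CPM, so knockdown replicate 1 was the highest for each. At 36.8% of astrocyte, 41.4% of oligodendrocyte and 34.5% of GABAergic marker regions accessibility was called higher, and at 4.41%, 3.45% and 0 lower, where 15.4% of all regions tested were higher and 12.7% lower. At glutamatergic genes 0 of 16 regions were higher and 4 lower, and at endothelial genes 3 of 16 higher and 4 lower. The sums overlapped between groups at precursor (71.1 to 77.4 against 73.2 to 82.5), microglial (111 to 128 against 114 to 130), endothelial (59.5 to 62.8 against 60.8 to 63.7) and glutamatergic genes (66.3 to 82.96 against 43.8 to 76.6). The part of these differences in the results below was not tested.

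Of the histone clusters, Hist1 on chromosome 13 holds 54 genes, which gaps over 100000 bp divide into 4 blocks. Block A (chr13:21715711-21837530) has 18 genes, block B (chr13:22035122-22043658) 5, block C (chr13:23531044-23764412) 29, and block D (chr13:23933725-23934913) the 2 genes H2bc1 and H2ac1, known as testis variants. Hist2 on chromosome 3 has 10 genes, Hist3 on chromosome 11 the pair H2bu2 and H2aw, and Hist4 on chromosome 6 only H4f16. In the tables used here, 46 of the 67 genes had a region in their window and 38 had a region over their listed start. The other 21 genes were not analysed here: the 10 of Hist2, 10 of block A from H1f5 to H4bc24, and H1f4. Of 19 such genes with a listed promoter, 10 shared an identical run of 50 bases with another promoter, against 2 (H4c11 and H4c12) of the 38 genes with a start-site region. Reads from such copies can be hard to place, and how the authors treated them is not given in the sources used here.

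Promoter sequences show how the histone types differ in their elements, and those below belong to the starts that fell most and, for comparison, to H3, H4 and H1 starts. They are RefSeq promoters of build GRCm38.p6 (mm10), written 5′ to 3′ on the strand of the gene, and run to the base before the start. Capitals mark CCAAT boxes (CCAAT or ATTGG, bound by NF-Y), the GGTCC core of the H4 subtype element (GGTCC or GGACC) and the AC box of H1 genes (AAACACA or TGTGTTT). The first lies between the divergent starts of H2bc7 and H2ac7 (chr13:23574208-23574380, plus strand). The next are the 150 bases before H2bc9 (chr13:23543445-23543594, minus strand), H3c3 (chr13:23745522-23745671, minus), H4c2 (chr13:23756787-23756936, plus), H4c1 (chr13:23761250-23761399, minus), H4f16 (chr6:136804432-136804581, minus) and H1f2 (chr13:23738657-23738806, plus).
H2bc7 to H2ac7: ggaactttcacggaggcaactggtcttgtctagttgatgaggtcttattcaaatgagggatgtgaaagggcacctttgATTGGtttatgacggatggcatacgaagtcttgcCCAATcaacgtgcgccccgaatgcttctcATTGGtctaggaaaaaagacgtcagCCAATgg
H2bc9: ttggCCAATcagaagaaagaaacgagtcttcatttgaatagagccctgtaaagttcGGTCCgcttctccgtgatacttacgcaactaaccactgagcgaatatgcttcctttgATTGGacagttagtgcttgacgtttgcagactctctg
H3c3: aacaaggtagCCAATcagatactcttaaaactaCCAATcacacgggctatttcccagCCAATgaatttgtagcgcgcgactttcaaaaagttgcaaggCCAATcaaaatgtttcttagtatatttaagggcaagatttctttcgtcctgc
H4c2: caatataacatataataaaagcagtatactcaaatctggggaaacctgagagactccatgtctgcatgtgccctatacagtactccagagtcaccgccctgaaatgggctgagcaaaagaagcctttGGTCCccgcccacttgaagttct
H4c1: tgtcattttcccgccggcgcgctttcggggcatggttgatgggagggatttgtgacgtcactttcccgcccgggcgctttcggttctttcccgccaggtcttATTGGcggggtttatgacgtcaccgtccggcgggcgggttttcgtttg
H4f16: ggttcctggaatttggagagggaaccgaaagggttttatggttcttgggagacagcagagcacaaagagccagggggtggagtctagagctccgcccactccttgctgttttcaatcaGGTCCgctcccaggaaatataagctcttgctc
H1f2: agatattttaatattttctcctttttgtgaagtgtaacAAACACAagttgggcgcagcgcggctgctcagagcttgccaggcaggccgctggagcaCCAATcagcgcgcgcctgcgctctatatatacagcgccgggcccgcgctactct

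Over the 300-base promoters (250 bases before to 50 after the start, both strands), a CCAAT box was found in 54 of 63 histone promoters, 85.7% against 38.2% of 21263 protein-coding promoters. All 18 H2A, 17 H2B, 10 H3 and 6 H1 promoters listed had one, and 3 of 12 H4 promoters. The GGTCC core was in 11 of 12 H4 promoters and in 42.9% of histone promoters against 49.0% of all promoters. A TATA box (TATAAA) was in 55.6% against 12.6%, and the octamer (ATTTGCAT), the H2B element bound by Pou2f1, in 22.2% against 1.66%, in 7 H2A and 7 H2B promoters only. The AC box was in 5 of 6 H1 promoters, 14.3% of histone promoters and 6.15% of all. No base was shared by 2 of these motifs in the sequences printed. These matches describe letters and not occupied sites.

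Across the 73 histone regions accessibility was called lower in knockdown at 22 and higher at 11, with a median log2 fold change (knockdown over control) of -0.05. Over all 191693 regions tested, 12.7% were lower and 15.4% higher, with a median of -0.01. A call is an edgeR quasi-likelihood test with a Benjamini-Hochberg adjusted p under 0.05 over all regions. The share of histone regions called lower, 30.1%, was above that background and the share called higher, 15.1%, was near it. The median control level was 14.7 CPM in the histone regions and 2.41 CPM over all regions, so these shares are not at like read depth. Without knockdown replicate 1 the counts were 18 lower and 12 higher. With groups by title no histone region passed with edgeR, 13 had an unadjusted p under 0.05, and no region of the whole table passed either.

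Most losses stood at gene starts. Of the 33 histone regions over a listed start, 15 were lower and 2 higher, with a median log2 fold change of -0.26, while of the 9772 start-site regions of all protein-coding genes 5.06% were lower and 37.0% higher, with a median of 0.23. In 17 of the 33, every knockdown library was below every control library, in 4 every one was above, and in 12 the groups overlapped. Over all start-site regions every knockdown library was below at 8.23% and above at 46.7%. Without knockdown replicate 1, 13 were lower and 3 higher. Start-site regions of all genes held 24.0% ± 0.433 of the reads in regions in control and 26.2% ± 0.816 in knockdown (SD, n = 3), without overlap. With loess curves in place of TMM scaling the median over all start sites moved to 0.0039 and that of the histone starts to -0.45, with 19 lower and 0 higher. With library totals as the scaling these medians were -0.03 and -0.52.

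**Figure D1:**
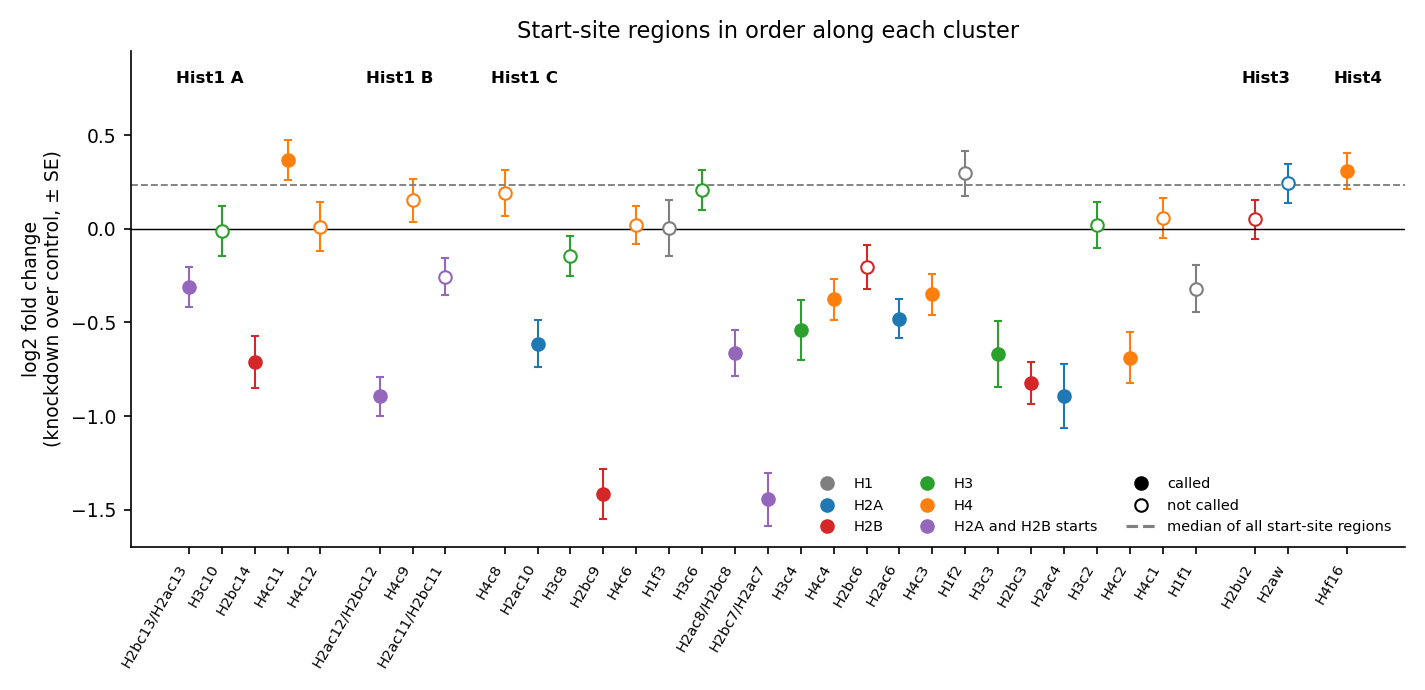
Log2 fold change of knockdown over control (vertical axis, ± SE) at the 33 histone start-site regions, in order along each cluster, coloured by histone type, with filled points for regions called at an edgeR adjusted p under 0.05. The 4 lowest points, from -0.89 to -1.45, are starts of H2A or H2B genes of Hist1, and the dashed line is the median of all start-site regions, 0.23.

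Among the start-site regions of Hist1, those of H2A and H2B genes held most of the 15 lower calls, and all Hist1 regions held 22. Of 12 start-site regions of H2A and H2B genes, 10 were lower and none higher, with log2 fold changes from -1.45 to -0.21 and a median of -0.69. In 11 of the 12 every knockdown library was below every control library, as at 8.23% of all start-site regions. The count of lower regions was 9 without knockdown replicate 1, 9 in DESeq2, 12 with library totals, reads in regions or loess curves as the scaling, and 9 or 10 with any other library left out. With groups by title it was 0, at a median of -0.50.

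The deepest loss was at the shared promoter of H2bc7 and H2ac7 in block C (chr13:23574155-23574555), whose sequence between the starts holds 4 CCAAT boxes. Control replicates 1 to 3 had 35.2, 29.2 and 27.6 CPM, and knockdown replicates 8.92, 13.7 and 11.03 CPM. The highest knockdown library stood below the lowest control library by more than either group's spread (30.7 ± 4.00 against 11.2 ± 2.40 CPM, SD, n = 3). The log2 fold change was -1.45 (SE 0.14, adjusted p = 2.2e-06 by edgeR), and -1.29 without knockdown replicate 1. With groups by title it was -1.04 (edgeR adjusted p = 0.41).

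The start of H2bc9 (chr13:23543312-23543712) fell to a similar extent. Its levels were 20.2, 17.7 and 17.7 CPM in control and 7.41, 6.97 and 6.38 CPM in knockdown. The knockdown libraries were close together and all well under the control libraries. The log2 fold change was -1.42 (SE 0.13, adjusted p = 1.6e-06 by edgeR), and -1.45 without knockdown replicate 1. A neighbouring region inside H3c7 (chr13:23544208-23544608) went from 20.3, 19.1 and 15.6 CPM to 13.5, 13.1 and 13.4 CPM (log2 fold change -0.46, edgeR adjusted p = 0.012), a call lost without control replicate 1 or 2.

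In block B, the divergent starts of H2ac12 and H2bc12 (chr13:22035531-22035931) had 28.2, 26.6 and 27.2 CPM in control and 13.99, 15.1 and 14.95 CPM in knockdown. The 3 libraries of each group were close together and the groups far apart. The log2 fold change was -0.89 (SE 0.11, adjusted p = 1.7e-05 by edgeR). The other divergent starts of the block, H2ac11 and H2bc11 (chr13:22042895-22043295), had 29.9, 26.95 and 26.2 CPM in control and 22.9, 22.9 and 23.5 CPM in knockdown. These groups did not overlap either, but the difference of -0.26 did not pass (SE 0.10, adjusted p = 0.062 by edgeR).

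At the start of H2bc3 (chr13:23746444-23746844) control replicates had 34.6, 31.5 and 27.3 CPM and knockdown replicates 18.3, 16.6 and 17.7 CPM. Its log2 fold change was -0.82 (SE 0.11, adjusted p = 6.5e-05 by edgeR). The nearby start of H2ac4 (chr13:23750885-23751285) had 14.1, 12.3 and 10.98 CPM against 5.07, 8.005 and 6.98 CPM, a log2 fold change of -0.89 (SE 0.17, adjusted p = 0.0011 by edgeR). At both starts all knockdown libraries were below all control libraries.

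The start shared by H2ac8 and H2bc8 (chr13:23571054-23571454) was the most accessible of the H2A and H2B starts in control, at 41.6, 33.01 and 29.4 CPM, and had 20.2, 22.3 and 22.7 CPM in knockdown. Control replicate 1 was the highest library at each of the 12 H2A and H2B starts. The log2 fold change was -0.66 (SE 0.12, adjusted p = 0.00079 by edgeR). H2ac10 fell from 18.4 ± 1.33 to 11.99 ± 1.28 CPM (log2 fold change -0.61, edgeR adjusted p = 0.0017), and H2ac6 from 34.2 ± 3.45 to 24.4 ± 1.35 CPM (SD, n = 3), a log2 fold change of -0.48 (edgeR adjusted p = 0.0027). In block A, H2bc14 went from 31.00, 27.6 and 23.01 CPM to 18.8, 12.7 and 18.01 CPM (log2 fold change -0.71, SE 0.14, adjusted p = 0.0014 by edgeR).

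Small differences were also seen at H2bc13 and H2ac13, and at H2bc6. The shared start of H2bc13 and H2ac13 went from 21.98 ± 1.01 to 17.7 ± 1.12 CPM (SD, n = 3), a log2 fold change of -0.31 (edgeR adjusted p = 0.039) that no longer passed in DESeq2 or without any of 5 single libraries, among them knockdown replicate 1. The H2bc6 start had 19.1, 18.5 and 16.2 CPM against 14.3, 15.5 and 16.7 CPM, where the groups overlap (-0.21, edgeR adjusted p = 0.21). Of 5 regions inside H2A or H2B genes of Hist1 and away from a listed start, 1 was higher and none lower. The higher one, inside H2ac11, had 2.36, 2.89 and 2.75 CPM in control and 4.99, 3.65 and 5.52 CPM in knockdown (log2 fold change 0.81, edgeR adjusted p = 0.01), beside a start that was not called. This gain did not pass with library totals.

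**Figure D2:**
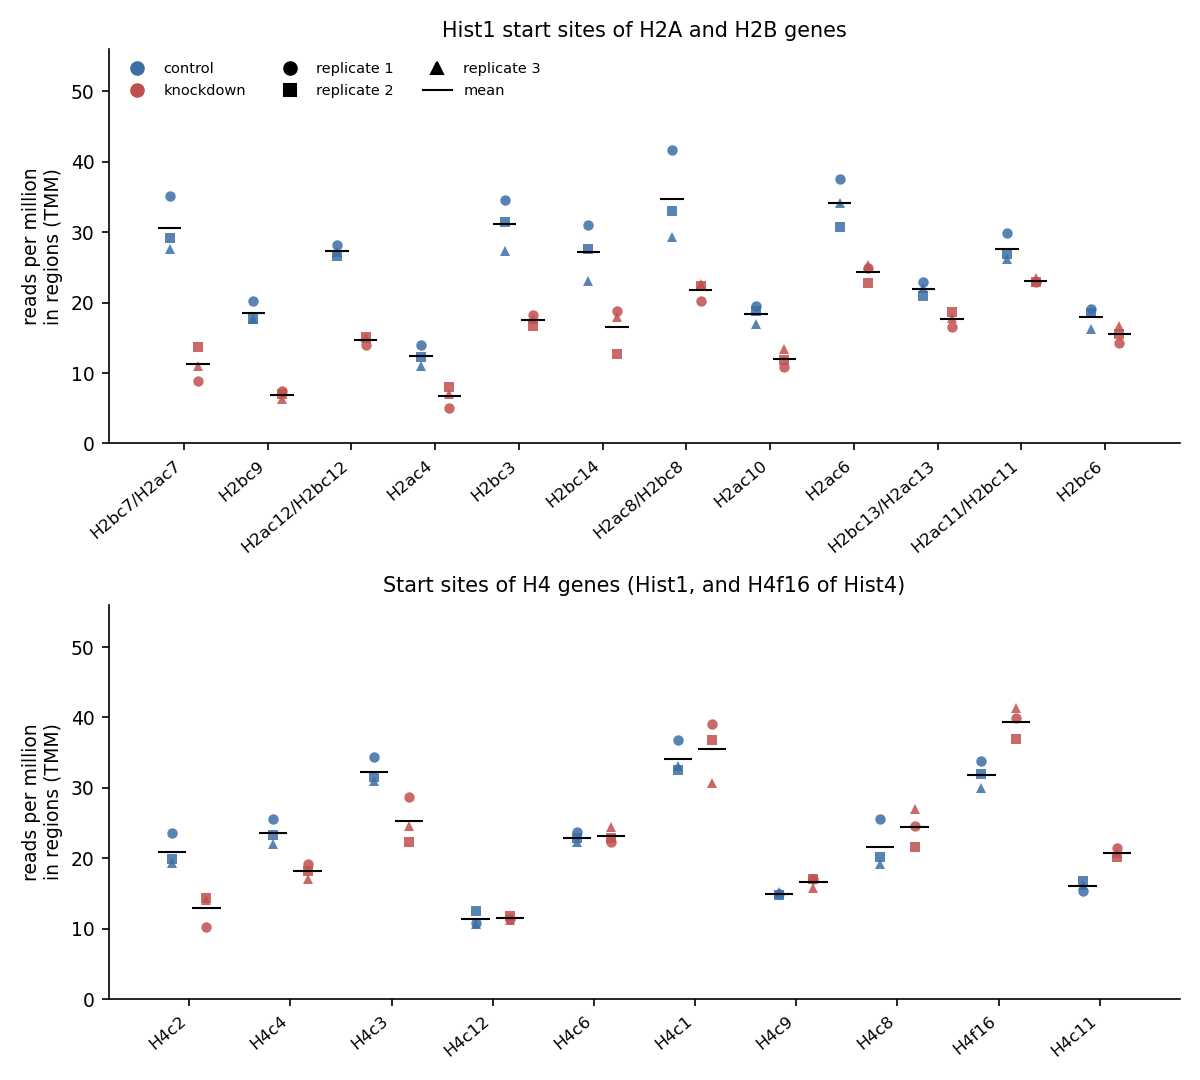
Accessibility in each library (vertical axis, CPM with TMM scaling, linear from 0) at the 12 Hist1 start-site regions of H2A and H2B genes and at the 10 start-site regions of H4 genes, ordered by fold change, with a bar at each group mean. In the upper panel the groups are apart at 11 of 12 starts, and in the lower panel H4c2, H4c4 and H4c3 are lower and H4f16 and H4c11 higher in knockdown.

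H4 starts had calls in both directions. Of 9 in Hist1, 3 were lower (33.3%) and 1 higher (11.1%), with a median log2 fold change of 0.02. Over all start-site regions 5.06% were lower and 37.0% higher, with a median of 0.23. With library totals as the scaling the 3 were lower and none higher, at a median of -0.24. The largest loss was at H4c2 (chr13:23756767-23757167), with 23.6, 19.9 and 19.3 CPM in control and 10.3, 14.4 and 14.02 CPM in knockdown. All knockdown libraries were below control, with knockdown replicate 1 the lowest. The log2 fold change was -0.69 (SE 0.14, adjusted p = 0.0014 by edgeR), and -0.53 without that library (edgeR adjusted p = 0.0056). H4c4 fell from 23.6 ± 1.84 to 18.1 ± 1.03 CPM and H4c3 from 32.3 ± 1.82 to 25.2 ± 3.23 CPM (log2 fold changes -0.38 and -0.35, edgeR adjusted p = 0.016 and 0.021; SD, n = 3). Both of these calls were lost without control replicate 1, without control replicate 2 and without knockdown replicate 3.

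H4c1, the most accessible H4 start of Hist1, had 36.8, 32.6 and 33.1 CPM in control and 39.1, 36.9 and 30.6 CPM in knockdown, and the groups overlapped (log2 fold change 0.06, SE 0.11, adjusted p = 0.72 by edgeR). Its sign turned with the scaling, to -0.21 with library totals or loess curves. H4c11 in block A had 15.4, 16.7 and 16.1 CPM in control and 21.5, 20.1 and 20.8 CPM in knockdown, all above control (log2 fold change 0.37, SE 0.11, adjusted p = 0.017 by edgeR). The H4c11 call was lost with all 3 other scalings and without control replicate 2 or 3. H4c11 and H4c12 share promoter runs, and H4c12 had 11.4 ± 1.04 and 11.5 ± 0.268 CPM (SD, n = 3).

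H3 starts showed losses at 2 of 6 (33.3%), with none higher and a median of -0.08. Over all start-site regions 5.06% were lower and 37.0% higher. H3c3 (chr13:23745458-23745858), next to H2bc3, had 12.5, 10.8 and 8.996 CPM in control and 5.22, 8.005 and 6.91 CPM in knockdown. The groups did not overlap, and the log2 fold change was -0.67 (SE 0.18, adjusted p = 0.0091 by edgeR), or -0.51 without knockdown replicate 1 (edgeR adjusted p = 0.044). H3c4 went from 13.3, 10.8 and 10.4 CPM to 6.28, 8.88 and 8.37 CPM (-0.54, edgeR adjusted p = 0.018), a call lost without knockdown replicate 1. Neither passed without control replicate 1. The most accessible H3 start, H3c8, had 34.5, 28.6 and 29.3 CPM against 25.3, 28.6 and 29.3 CPM, with overlap (-0.14, edgeR adjusted p = 0.33). H3c1 has no listed start, and a region inside it (chr13:23762206-23762902) fell from 30.4, 25.3 and 24.95 CPM to 17.4, 20.9 and 18.2 CPM (-0.51, SE 0.11, adjusted p = 0.0036 by edgeR).

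None of the 3 linker histone (H1) starts passed, where 5.06% of all start-site regions were lower and 37.0% higher. H1f2 had 15.04, 16.9 and 15.8 CPM in control and 16.9, 20.8 and 21.1 CPM in knockdown, where knockdown replicate 1 was the lowest of its group. Its log2 fold change was 0.29 (SE 0.12, adjusted p = 0.072 by edgeR), and 0.40 without that library, which passed (edgeR adjusted p = 0.02). H1f1 had 16.9, 15.7 and 13.9 CPM against 11.7, 13.5 and 11.96 CPM (-0.32, edgeR adjusted p = 0.067), and H1f3 13.1, 14.6 and 12.4 CPM against 10.4, 16.2 and 13.8 CPM (0.00, edgeR adjusted p = 0.98). A second region 181 bp outside the bounds of H1f3 (chr13:23555988-23556388) had 14.1, 14.1 and 14.3 CPM in control and 6.20, 7.77 and 7.38 CPM in knockdown, far apart. This was the third largest loss of the 73 regions (log2 fold change -0.99, SE 0.14, adjusted p = 9.4e-05 by edgeR).

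Reads were also summed by histone type. Of every 10000 reads in start-site regions of all genes, the 12 Hist1 H2A and H2B regions took 13.7, 12.96 and 12.5 in control replicates 1 to 3 and 6.32, 7.27 and 7.19 in knockdown, a mean that fell by 46.8%. The Hist1 H4 starts took 8.62, 8.57 and 8.44 in control and 6.74, 7.195 and 6.87 in knockdown, a mean that fell by 18.8%, and the H3 starts 4.41 ± 0.1702 and 3.52 ± 0.410 (SD, n = 3). In these 3 types every knockdown library was below every control library on this scale, whose denominator was itself a larger share of the reads in regions in knockdown, as given above. The H1 starts took 1.93 ± 0.129 and 1.68 ± 0.307, and the starts of Hist3 and Hist4 3.36 ± 0.0767 and 3.32 ± 0.151 (SD, n = 3), with overlap.

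With the same reads as summed CPM after TMM scaling, a comparison added after the data were seen, H2A and H2B starts still did not overlap. They had 334, 294 and 279 CPM in control and 182, 187 and 194 CPM in knockdown, a mean that fell by 37.8%. The H4 starts had 211, 194.3 and 189 CPM against 194.2, 185 and 186 CPM, and the H3 starts 112, 100.04 and 94.7 CPM against 89.1, 100.7 and 96.03 CPM. Both types overlapped between groups, with means that differed by -4.82% and -6.75%, so the separation of H4 and H3 sums depends on the denominator. The H1 sums overlapped on this scale too (44.8 ± 2.60 and 45.4 ± 5.90 CPM), and those of Hist3 and Hist4 were higher in each knockdown library (77.9 ± 5.15 and 90.4 ± 4.59 CPM, SD, n = 3).

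The balance between types within a library, a ratio that needs no scaling between libraries, moved as well. The log2 ratio of H2A and H2B reads over H4 reads at Hist1 starts was 0.66, 0.60 and 0.56 in control and -0.09, 0.01 and 0.07 in knockdown. In control the H2A and H2B starts held more reads than the H4 starts in each library, and in knockdown about as many. The log2 ratio of all Hist1 starts over those of Hist3 and Hist4 was 3.05 ± 0.0158 in control and 2.52 ± 0.0886 in knockdown (SD, n = 3). No p-value is given for these sums, because the genes summed are not replicates, and 3 libraries against 3 cannot give an exact permutation p below 0.1.

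**Figure D3:**
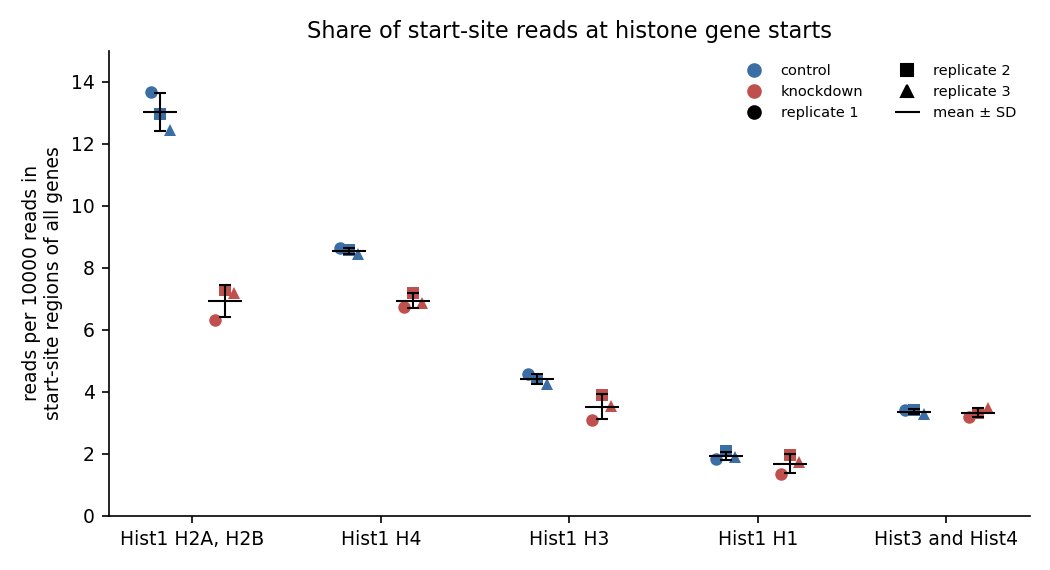
Reads at histone starts per 10000 reads in start-site regions of all protein-coding genes (vertical axis, linear from 0), with 1 point for each library and the mean ± SD of 3 libraries. Control libraries lie at 12.5 to 13.7 and knockdown libraries at 6.32 to 7.27 for Hist1 H2A and H2B, while the groups overlap for H1 and for Hist3 and Hist4.

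The blocks of Hist1 differed in their counts, where 12.7% of all regions tested were lower and 15.4% higher. In block C 18 of 39 regions were lower (46.2%) and 1 higher (2.56%), at a median of -0.33. The other blocks hold few regions. In block A 2 of 10 were lower and 1 higher (20% and 10%). In block B 1 of 10 was lower and 4 higher (10% and 40%), and in block D 1 of 2 lower. The blocks also differ in their share of start sites, which are 22 of the 39 regions in C, 5 of 10 in A and 3 of 10 in B. At starts alone, 12 of 22 were lower in block C (54.5%), 2 of 5 in A (40%) and 1 of 3 in B (33.3%). At block C starts, 7 of 8 H2A and H2B regions and 3 of 6 H4 regions were lower, against 5.06% of all start-site regions. The gains of block B lay mostly outside the genes. At 4828 bp from H2ac12 (chr13:22029894-22030294) levels were 2.20, 1.99 and 2.75 CPM in control and 7.03, 3.57 and 4.65 CPM in knockdown. All knockdown libraries were higher, with knockdown replicate 1 the highest (log2 fold change 1.13, SE 0.25, adjusted p = 0.0032 by edgeR, and 0.85 without that library). Further gains were 0.56 at 6046 bp from H2ac12 and 0.51 at 7221 bp from H2bc11 (edgeR adjusted p = 0.0019 and 0.002), and neither passed with library totals.

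Hist3 and Hist4 showed no loss with TMM scaling. Of their 12 regions 5 were higher (41.7%, against 15.4% of all regions) and 0 lower with edgeR, at a median of 0.28. These 5 include the starts of H4f16, Rnf187 and H2aj, and 37.0% of all start-site regions were higher. With library totals 0 of the 12 were higher and 1 lower, at a median of 0.01. The start of the lone Hist4 gene H4f16 (chr6:136803698-136804654) had 33.8, 31.95 and 29.9 CPM in control and 39.99, 36.9 and 41.3 CPM in knockdown. All knockdown libraries were higher (log2 fold change 0.31, SE 0.10, adjusted p = 0.023 by edgeR), beside a median of 0.23 over all start sites, and the call was lost with all 3 other scalings. A region 3599 bp away, at the start of the replacement variant gene H2aj, had 26.5, 28.1 and 26.7 CPM against 37.7, 32.7 and 37.02 CPM (0.40, edgeR adjusted p = 0.006). That call was lost with library totals and with loess curves. The third Hist4 region, 8665 bp away, had 3.11, 3.91 and 3.98 CPM against 4.31, 4.99 and 4.19 CPM (0.28, edgeR adjusted p = 0.32).

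In Hist3, the start of H2bu2 had 22.6, 21.9 and 21.3 CPM in control and 21.8, 21.2 and 24.8 CPM in knockdown, with overlap (log2 fold change 0.05, edgeR adjusted p = 0.76), and its sign turned with each other scaling. The start of H2aw had 27.05, 23.1 and 22.1 CPM against 29.9, 27.1 and 28.05 CPM (0.24, edgeR adjusted p = 0.093). A region inside H2aw (chr11:58954789-58955189) rose from 11.3, 12.8 and 11.9 CPM to 17.7, 19.7 and 16.9 CPM, without overlap (0.58, SE 0.12, adjusted p = 0.0019 by edgeR). A region 9768 bp from H2bu2, at the start of Rnf187, rose from 31.9 ± 1.29 to 46.2 ± 2.67 CPM (SD, n = 3), a log2 fold change of 0.54 (edgeR adjusted p = 0.00058). With library totals these 2 gains did not pass.

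**Figure D4:**
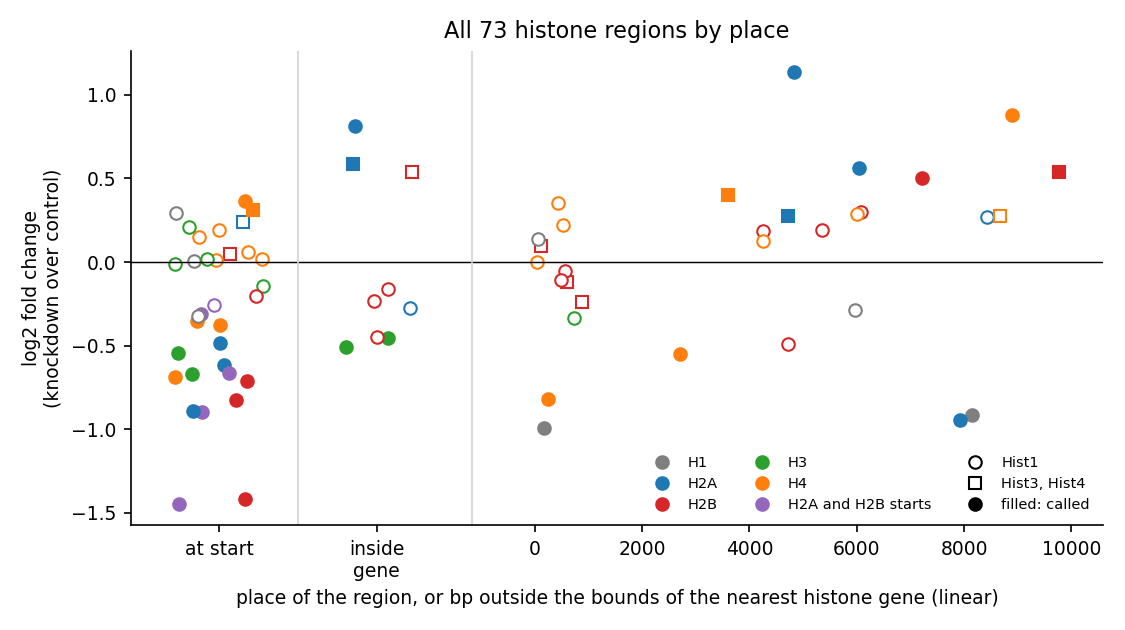
Log2 fold change (vertical axis) of the 73 histone regions by place, namely at a listed start, inside a gene, or at a distance in bp outside the bounds of the nearest histone gene (linear axis), coloured by type, with filled points for calls. Of 33 start-site regions 15 are filled below 0 and 2 above, while of 19 regions beyond 1000 bp 7 are filled above 0 and 3 below.

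Outside the genes, higher calls differed by distance. Of 12 regions outside the bounds by up to 1000 bp none was higher and 2 were lower (16.7%) with edgeR. Beyond 1000 bp 7 of 19 were higher (36.8%) and 3 lower (15.8%), or 2 and 3 with library totals. These 7 include the starts of Rnf187 and H2aj, and 37.0% of all start-site regions were higher. Over all regions tested 15.4% were higher and 12.7% lower, so the lower shares at both distances were near the background. Besides those above, the gain furthest from zero was at 8889 bp from H4c8, from 4.03, 4.84 and 4.69 CPM to 10.7, 7.37 and 7.11 CPM (log2 fold change 0.88, edgeR adjusted p = 0.0027). The losses beyond 1000 bp lay near H1f1 (8156 bp, -0.92, edgeR adjusted p = 0.006), H2ac1 (7929 bp, -0.95, edgeR adjusted p = 0.019) and H4c3 (2698 bp, -0.55, edgeR adjusted p = 0.047). The last 2 calls failed in DESeq2, without either of control replicates 2 and 3, and without knockdown replicate 1 or 3. The H2ac1 region had 1.98 to 2.51 CPM in control and 0.832 to 1.51 CPM in knockdown, and 3 reads equal 0.117 to 0.238 CPM, so it rests on few reads.

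Start-site regions were also compared by the elements in their promoters, which the choice of genes did not use. Of 26 regions whose promoter holds a CCAAT box, 14 were lower and 0 higher with edgeR, at a median of -0.34. Over all start-site regions 5.06% were lower and 37.0% higher. Of 7 without one, all at H4 genes, 1 (H4c2) was lower and 2 (H4c11 and H4f16) higher, at a median of 0.15. Among H4 starts, 2 of 3 with a CCAAT box were lower, H4c3 and H4c4, and the remaining one is H4c1. The octamer stood in 7 of the 12 Hist1 H2A and H2B regions, 6 of them lower, and the other 5 include 4 lower ones. The TATA box stood in 6 of these 12, all 6 lower at a median of -0.86, and 4 of the 6 without it were lower at a median of -0.46. All promoters at H2A, H2B, H3 and H1 starts have a CCAAT box, and in Hist1 the lower calls among them were 10 of 12 for H2A and H2B, 2 of 6 for H3 and 0 of 3 for H1.

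Genes of the same pathway were taken from lists and are given within 10000 bp. Their counts stand beside backgrounds of 15.4% higher and 12.7% lower over all regions, and 37.0% and 5.06% over all start sites. Of 59 regions at 12 replication-independent histone genes 10 were higher and 10 lower (16.9% each), and of their 7 start sites 2 were higher and 0 lower with edgeR, near those backgrounds. The start of H3f3a, which encodes a replacement H3 variant, went from 26.1 to 36.5 CPM (log2 fold change 0.49, edgeR adjusted p = 0.0014). The H3f3b start, at 42.3 and 45.8 CPM, was not called (0.12, edgeR adjusted p = 0.37), nor were those of H2az1 and Cenpa (0.04 and 0.20). Not over a listed start of the gene, the largest called gain of this list was at H2az1 (1.31) and the largest loss at H1f10 (-1.74). For factors of histone gene transcription and mRNA processing, 26 of 110 regions were higher (23.6%) and 15 lower (13.6%), and of 11 start sites 1 was higher and 0 lower with edgeR. Slbp, which binds the histone stem-loop, had a start at 49.4 and 52.8 CPM (0.10, edgeR adjusted p = 0.51), and the most accessible region of Npat, the coactivator of histone promoters in S phase, 56.5 and 66.96 CPM (0.25, edgeR adjusted p = 0.062). The largest called gain and loss of the processing list were at Pou2f1 (1.95) and Zfp473 (-1.63), neither over the gene's listed start.

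At histone chaperones 31 of 127 regions were higher (24.4%) and 14 lower (11.0%), with 7 of 16 start sites higher. Hira, which deposits replacement H3, was among them (0.43, edgeR adjusted p = 0.0028). Both the largest called gain and the largest called loss of the chaperone list were at Nasp (2.45 and -1.76), neither over its listed start. At genes of S phase and division 18 of 94 regions were higher (19.1%) and 12 lower (12.8%), near the backgrounds, and of 18 start sites 2 were higher and 3 lower. The lower starts were those of Mcm3, a subunit of the replicative helicase (22.3 to 8.35 CPM, log2 fold change -1.42, edgeR adjusted p = 1.1e-05), Mcm6 (-0.29, edgeR adjusted p = 0.048) and Top2a, a DNA topoisomerase (-0.37, edgeR adjusted p = 0.044). The starts of Mki67, a marker of dividing cells, had 15.6 and 12.8 CPM (-0.29, edgeR adjusted p = 0.087), and those of Cdk1 22.7 and 23.5 CPM (0.05, edgeR adjusted p = 0.76). Ccne2 (2.65) and Ccne1 (-1.69) had the largest called gain and loss of this list, neither over the gene's listed start.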

How the data were processed

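Each of the 6 libraries has 1 deposited table, which per the file headers lists 193148 regions of mm10, the same in all tables, with their read counts, RPKM and score. Of the regions 94.6% are 401 bp wide. The deposited counts, whole and not normalized, were tested directly. The deposited RPKM gave each library's total, and the deposited score was set aside. FastQC, Trimmomatic, BWA, SAMtools 1.9, Picard and MACS2 are listed in the submitters' processing notes, with no role stated. How reads were counted or shifted, and how the regions were made, is not given in the sources used here.

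Counts of all regions were fitted with edgeR 4.0.16 in R 4.3.3 (quasi-likelihood test, group as the only term, TMM scaling, filterByExpr), and 191693 regions passed the filter. On counts simulated for knockdown against control at 20000 regions, the fit called 57 of 100 regions changed by 1 on the log2 scale, 92 of 100 changed by 2, and 4 of 19800 left unchanged. The simulated counts had the same fixed spread at all regions, and equal numbers of gains and losses. They give no error rate for the calls in the data. CPM values are relative to reads in regions after TMM scaling. A level of 3 reads equals 0.117 to 0.238 CPM, which covers counting error only. Gene bounds came from RefSeq genes of GRCm38.p6 (mm10), and starts, strands and sequences from RefSeq promoters of the same build, with a listed start for 62 of the 67 genes. A start-site region overlaps the listed start of a protein-coding gene. A region belongs to the nearest histone gene, which need not be the gene it acts on.

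The members and lists were chosen with earlier results of these data known. Regions were named from the most accessible start of each type and cluster, the 10 largest called changes in each direction, and all Hist4 regions. For each pathway list the largest called gain and loss are named. Other regions, the remaining list genes among them, were picked with their values in view. The alternatives were the Wald test of DESeq2 1.42.0, leaving off the filter, 3 other scalings (library totals, reads in regions, loess curves from limma 3.58.1), each library left out, groups by title, knockdown replicate 2 alone, and windows of 0, 2000 and 25000 bp. Replicate numbers are not shared between groups in the labels and were not used to pair libraries.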

Additional observations from a re-analysis of the deposited data

How the results depend on the processing

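Counts of histone regions lower and higher in knockdown, 22 and 11 with the stated settings, were 18 and 10 in DESeq2, 22 and 11 without the filter, 26 and 8 with reads in regions and 24 and 8 with loess curves. With library totals 30 were lower and 2 higher. Leaving out 1 library gave 14 to 22 lower and 8 to 12 higher, with 14 lower without control replicate 1. Knockdown replicate 2 alone, whose spread is taken from the controls, gave 13 lower and 4 higher, and grouping by title 0 and 0 (the cause was not tested; 13 histone regions and 23035 of all regions had an unadjusted p under 0.05 with edgeR). Gene bounds alone and a window of 2000 bp each gave 4 higher, and a window of 25000 bp gave 22, as fewer or more regions enter. The median log2 fold change of -0.05 moved to -0.32 with library totals, -0.16 with reads in regions and -0.16 with loess curves, and ranged from -0.16 to 0.0067 over the left-out libraries. The median of all regions was -0.27 with library totals. In the 12 settings other than grouping by title, 12 of the regions called lower were called in each one, and none of those called higher.

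Of 364 values for 28 named regions under alternatives, 291 kept direction and side of the threshold, 58 lost and 4 gained the call, and 11 changed sign, all at starts that were not called. H2bu2 turned to -0.21 with library totals, -0.061 with reads in regions, -0.16 with loess curves, -0.0041 to 0.089 with 1 library left out and -0.062 with knockdown replicate 2 alone. H2aw turned to -0.022 with library totals. H4c1 turned to -0.21 with library totals, -0.051 with reads in regions, -0.21 with loess curves, -0.0032 to 0.17 with 1 library left out and -0.080 with grouping by title. The cause was not tested. No paired analysis was made. The titles number the libraries 1, 3 and 5 in one group and 2, 4 and 6 in the other, which neither states nor excludes pairs.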

Other observations

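The stretch of chromosome 13 between the first and the last Hist1 region also holds 96 regions outside the histone windows. Of these 51 were called higher (53.1%) and 5 lower (5.21%) in knockdown with edgeR, at a median log2 fold change of 0.57. Over all regions tested 15.4% were higher and 12.7% lower. The 5 start-site regions of the stretch gave 0 calls. The largest gain lay 25575 bp from Zfp184, a zinc finger gene between blocks A and B (chr13:21919078-21919478). It had 1.899, 1.80 and 2.89 CPM in control and 20.7, 18.4 and 18.2 CPM in knockdown, all knockdown libraries far above control (log2 fold change 3.11, SE 0.18, adjusted p = 1.2e-08 by edgeR). A region 16332 bp from Abt1 rose from 0.988, 1.99 and 2.70 CPM to 10.9, 12.9 and 13.4 CPM (2.65, edgeR adjusted p = 7.4e-07). Within 200000 bp of block C, 17 of 43 such regions were higher (39.5%) and 1 lower (2.33%). The start sites of Zfp184, Zfp322a, Abt1, Btn2a2 and Hfe, the 5 counted, had log2 fold changes from -0.19 to 0.26.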
